A study of Mus musculus with 107 samples.

Results

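In mouse embryonic stem (ES) cells of the E14 line, 951 of 23415 PRC2 peaks on chromosomes 1 to 19 and X, or 4.06%, overlapped both an H3K27me3 peak and an RNA polymerase II (RNAPII) ChIP peak by at least 1 bp. These sites were taken as the rows of the pooled PRC2 ChIA-PET peak list that met both overlaps, so the presence and the height of the PRC2, H3K27me3 and RNAPII peaks are a description of the choice and carry no test. They made up 24.7% of the 3847 PRC2 peaks that overlapped H3K27me3. Sites of this kind are often called poised, a word for genes that hold polymerase but make little RNA. The RNA of the B6NJ line went in part against that word. Levels are in CPM, a gene's counts scaled to the same library total. Of 780 protein-coding genes starting at the sites, 155 or 19.9% were under 1 CPM, against 41% of all coding genes. At 10 CPM or more were 33.8%, against 43% of all coding genes. The peaks are from E14 cells, grown in another medium, so RNAPII and RNA were not compared in the same cells. The sites are therefore named here by their peaks, as PRC2/H3K27me3/RNAPII sites.

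Polycomb repressive complex 2 (PRC2), built on Eed, Suz12 and the enzyme Ezh2, adds methyl groups to lysine 27 of histone H3. In ES cells the resulting mark, H3K27me3, lies mainly over CpG-rich promoters of developmental regulators, which are kept low until a lineage needs them. RNAPII can be present at some of these promoters, where it is often held shortly after it starts.

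The study mapped PRC2 contacts in E14 cells by ChIA-PET, in which DNA ends held together by a protein are joined and sequenced, with antibodies to Suz12 (11 libraries), Ezh2 (7 libraries) and Eed (6 libraries). E14 cells grew without feeders on gelatin in serum with leukaemia inhibitory factor. It then removed distal elements in B6NJ mouse ES cells, which grew on irradiated embryonic fibroblasts in serum medium with the inhibitors PD0325901 and CHIR99021. RNA was counted in 26 libraries and Ezh2 ChIA-PET was made in 10. The groups are the parental B6NJ line without a deletion and 4 deletions with 2 clonal lines each, named here by chromosome and clone: chr9 F1 and G9, chr7 D4 and F4, chr3 C2 and H7, and chr2 D10 and G5. Each line has 3 RNA libraries except chr9 F1 with 2, and Ezh2 libraries exist as pairs for the parental line and the chr9 and chr7 clones. The labels place the deleted intervals at chr9:37451506-37461721 and chr7:143440438-143450716 on mm10. They give no interval for the chr3 and chr2 deletions. One chr9 F1 Ezh2 library carries a cell-type label that reads B6NJ primary cells, against its title, and was kept under its title.

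Parental and chr9 RNA libraries held 90.3 to 128 M gene counts and all others 39.7 to 60.2 M. Every chr7, chr3 and chr2 library was thus shallower than every parental one, and effects of a library batch and of those deletions cannot be told apart. All 10 ES cell markers were detected in every line, with summed levels of 7570 to 9430 CPM. The summed level of 26 feeder fibroblast markers was 110 to 151 CPM in the parental libraries, 137 to 190 CPM in chr9 F1 and 284 to 571 CPM in chr9 G9. Peaks come from E14 cells and RNA from B6NJ cells, so each statement that joins them crosses lines and culture media. In these bulk samples, fewer cells making an RNA and less RNA per cell cannot be told apart.

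The promoters of 4 genes at the sites, those with the highest RNAPII fold after Egr1, are printed below so that their base composition can be seen. Each run covers 250 bases before to 50 after the gene start in RefSeq on GRCm38.p6, 5′ to 3′ on the gene's strand, with CG dinucleotides in capitals. Elavl3 codes for a neuronal RNA-binding protein, Klf4 for a pluripotency factor, Cdkn1a for the cell cycle inhibitor p21 and Snai1 for a zinc finger repressor.
Elavl3, chr9:22051974-22052273, minus strand: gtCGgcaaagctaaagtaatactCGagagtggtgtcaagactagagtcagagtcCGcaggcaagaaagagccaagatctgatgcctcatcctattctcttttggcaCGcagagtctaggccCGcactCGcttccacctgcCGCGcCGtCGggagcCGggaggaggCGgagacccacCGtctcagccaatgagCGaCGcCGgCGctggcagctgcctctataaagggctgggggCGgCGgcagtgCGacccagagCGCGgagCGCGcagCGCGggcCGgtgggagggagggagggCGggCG
Klf4, chr4:55532426-55532725, minus strand: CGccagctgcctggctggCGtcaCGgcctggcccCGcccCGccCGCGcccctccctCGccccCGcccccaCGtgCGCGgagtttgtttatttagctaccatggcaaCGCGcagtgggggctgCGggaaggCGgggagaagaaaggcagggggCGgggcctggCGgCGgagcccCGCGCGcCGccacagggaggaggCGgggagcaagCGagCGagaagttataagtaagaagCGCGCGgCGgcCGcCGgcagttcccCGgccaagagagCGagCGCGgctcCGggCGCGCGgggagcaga
Cdkn1a, chr17:29093519-29093818, plus strand: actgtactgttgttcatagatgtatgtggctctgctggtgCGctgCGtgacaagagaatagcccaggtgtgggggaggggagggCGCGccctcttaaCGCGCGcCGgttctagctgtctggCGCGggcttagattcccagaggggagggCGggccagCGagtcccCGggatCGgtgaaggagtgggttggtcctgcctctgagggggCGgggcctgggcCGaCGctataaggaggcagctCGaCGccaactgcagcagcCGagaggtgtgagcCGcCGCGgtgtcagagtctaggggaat
Snai1, chr2:167537945-167538244, plus strand: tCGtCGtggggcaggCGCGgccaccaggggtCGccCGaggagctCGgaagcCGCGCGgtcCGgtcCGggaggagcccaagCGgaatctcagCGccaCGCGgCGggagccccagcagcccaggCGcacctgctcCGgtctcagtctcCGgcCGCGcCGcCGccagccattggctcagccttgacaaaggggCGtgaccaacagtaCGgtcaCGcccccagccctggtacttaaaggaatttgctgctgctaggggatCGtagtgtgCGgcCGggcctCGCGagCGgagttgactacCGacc
For comparison, Foxb2, a forkhead factor, and Tbx1, a T-box factor, start at the H3K27me3-marked PRC2 peaks without any RNAPII peak that had the highest PRC2 fold. Eef1a1, a translation elongation factor, starts at a PRC2 peak without H3K27me3 whose RNAPII fold was 44.41. The highest RNAPII fold among PRC2 peaks with RNAPII but no H3K27me3 was 51.5.
Foxb2, chr19:16873781-16874080, minus strand: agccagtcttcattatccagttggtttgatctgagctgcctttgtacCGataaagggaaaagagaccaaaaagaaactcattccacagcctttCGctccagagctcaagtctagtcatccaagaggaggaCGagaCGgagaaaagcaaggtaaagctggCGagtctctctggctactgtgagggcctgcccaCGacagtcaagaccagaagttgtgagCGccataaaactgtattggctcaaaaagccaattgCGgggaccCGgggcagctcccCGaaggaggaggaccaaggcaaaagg
Tbx1, chr16:18588850-18589149, minus strand: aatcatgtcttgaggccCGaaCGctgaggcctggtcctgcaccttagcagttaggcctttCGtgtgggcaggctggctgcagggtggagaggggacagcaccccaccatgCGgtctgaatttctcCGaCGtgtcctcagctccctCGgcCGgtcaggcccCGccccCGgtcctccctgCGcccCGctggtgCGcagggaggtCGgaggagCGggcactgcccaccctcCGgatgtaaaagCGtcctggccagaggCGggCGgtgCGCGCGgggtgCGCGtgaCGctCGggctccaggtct
Eef1a1, chr9:78481675-78481974, minus strand: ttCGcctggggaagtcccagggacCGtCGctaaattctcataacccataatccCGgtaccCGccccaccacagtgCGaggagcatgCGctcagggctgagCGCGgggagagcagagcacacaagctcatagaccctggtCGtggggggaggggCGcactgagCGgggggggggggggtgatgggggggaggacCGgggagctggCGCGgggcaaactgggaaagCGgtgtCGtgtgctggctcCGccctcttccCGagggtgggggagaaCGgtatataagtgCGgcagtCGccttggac

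The Klf4 promoter was 74.3% G or C with 40 CG dinucleotides, and its ratio of observed to expected CG was 0.97. Snai1 had 34, Elavl3 29 and Cdkn1a 23 CG dinucleotides in the same length. Foxb2 had 10 at 51.7% G or C, while Tbx1 had 26 and Eef1a1 22. Among the printed promoters of the sites, those of Elavl3, Klf4 and Cdkn1a held GGGCGG, the core of the GC box bound by Sp factors, on either strand, and Snai1 did not.

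High G and C content was also seen over all 598 promoters of coding genes at the sites. Their median was 68.5% G or C, with 27 CG dinucleotides per window and an observed to expected ratio of 0.8. The medians were 63.7% and 20 for 715 promoters at PRC2/H3K27me3 peaks with no RNAPII, 66.3% and 23 for 531 promoters where RNAPII was found by ChIA-PET only, and 65.3% and 24 for 740 promoters with PRC2 and RNAPII but no H3K27me3. Over all 17273 promoters in the table the medians were 56.7% and 14. GGGCGG or its complement CCGCCC was found in 76.9% of promoters at the sites, in 62.4% of those without RNAPII, in 76.5% of those without H3K27me3 and in 46.9% of all. GCGCGC, which reads the same on both strands and can overlap itself, was found in 41.1%, 28.4%, 36.5% and 18.3% in the same order. TATAAA or TTTATA was found in 9.53% at the sites and 13.4% of all. These are counts of letters in a window and not of bound factors.

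From the median to the 90th percentile the sites were somewhat shorter and lower in PRC2 than other H3K27me3-marked PRC2 peaks. Their median length was 2833 bp, against 2903 bp with no RNAPII and 3137 bp with RNAPII in ChIA-PET only, and their median PRC2 fold enrichment, the authors' peak height over background, was 4.42. The median fold was 5.44 at 1863 PRC2/H3K27me3 peaks with no RNAPII, 5.78 at 1033 with RNAPII in ChIA-PET only and 1.85 at 2286 PRC2/RNAPII peaks with no H3K27me3. At the lower quartile the sites were longer and higher in PRC2 than peaks with no RNAPII, at 2037 against 1584 bp and a fold of 3 against 2.7. H3K27me3 peaks covered a median of 45.7% of a site, against 61.5% where RNAPII was missing. RNAPII ChIP peaks covered a median of 16.2%, and their median fold was 4.65. An RNAPII ChIA-PET peak, from a separate assay, lay at 99.3% of the sites, against 99.2% of PRC2/RNAPII peaks with no H3K27me3. A peak of CTCF, a DNA-binding protein found at loop anchors, lay at 18.8% of the sites. The CTCF share was close at peaks with no RNAPII, 18.7%, and with RNAPII in ChIA-PET only, 20.8%, and was 8.88% with no H3K27me3.

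Gene starts were frequent at the sites. Of the 951, 786 or 82.6% held a gene start and 78.8% a protein-coding one, against 59% with a gene start where RNAPII was missing, 72.3% with RNAPII in ChIA-PET only and 45.2% without H3K27me3. For 275 of the 1000 genes placed at the sites the promoter table gave no start, so either gene end was counted as one. The RNAPII summit lay within 500 bp of a gene start at 721 sites, with a median distance of 116 bp over all sites. The 165 sites without a gene start had a median PRC2 fold of 2.86 and a length of 1888 bp, against 5.01 and 3012 bp for the others. Their RNAPII fold was close to that of the sites with a start, at 4.5 and 4.68. In 76 of the 165, the PRC2 summit was within 2 kb of a start, and in 29 it was over 10 kb away.

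H3K27me3 and RNAPII lay side by side rather than on top of each other. Only 231 RNAPII summits, or 24.3%, were inside an H3K27me3 peak, although 91.2% were inside the PRC2 peak. Around 598 coding starts at the sites, a H3K27me3 peak covered 32.6% of starts at the start itself, 37.3% at 1 kb upstream and 66.4% at 1 kb downstream. RNAPII peaks covered 74.2% at the start and 12.9% at 500 bp downstream. At 715 starts with PRC2 and H3K27me3 but no RNAPII, H3K27me3 covered 70.1% at the start and 70.3% at 1 kb downstream, without a dip. At 531 starts with RNAPII in ChIA-PET only it covered 56.9% at the start and 75.9% at 1 kb downstream. The peak lists share no libraries, but the sites were picked from them, so this is a description.

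**Figure D1:**
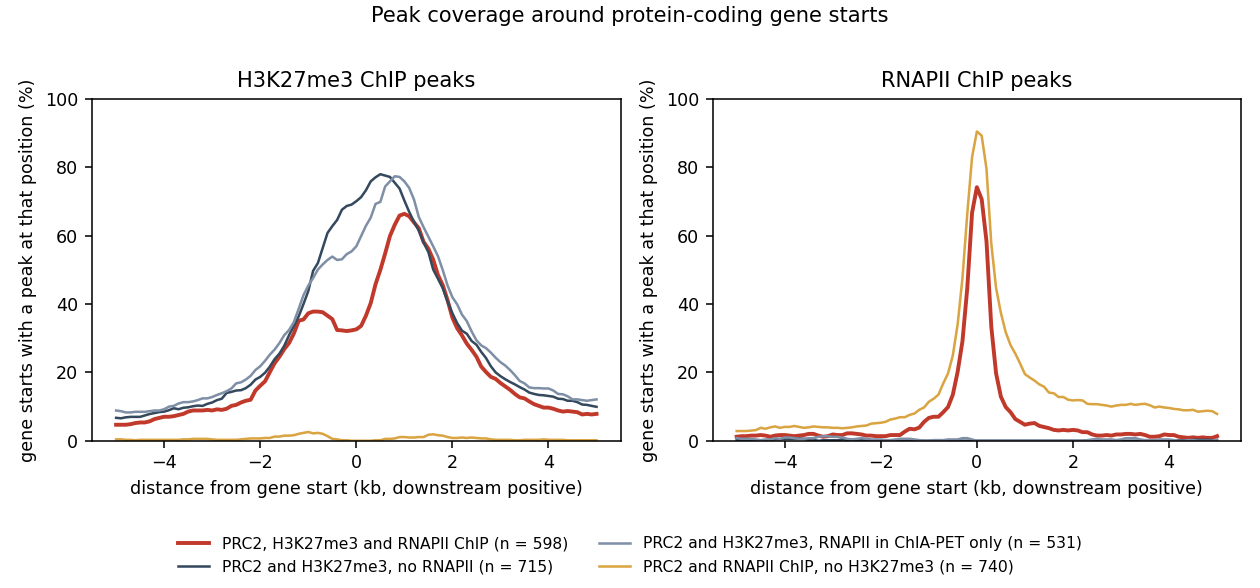
Percent of protein-coding gene starts covered by an H3K27me3 peak (left) or an RNAPII ChIP peak (right) at each distance from the start in kb, for the 4 classes of PRC2 peak. At the PRC2/H3K27me3/RNAPII sites the H3K27me3 line dips to 32.6% at the start, where RNAPII reaches 74.2%, and rises to 66.4% at 1 kb downstream.

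Where the RNAPII summit fell outside H3K27me3, at 720 sites, the median distance to the H3K27me3 peak was 599 bp, and 591 summits were within 1000 bp. The 231 sites with the summit inside had a higher median PRC2 fold, 6.52 against 3.92, and were longer, 3855 against 2623 bp. Their RNAPII fold was 4.35 against 4.77. Median parental RNA was 3.16 CPM for 209 coding genes at sites with the summit inside and 6 CPM for 571 at sites with it outside, and 26.3% and 17.5% were under 1 CPM.

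PRC2 and RNAPII height were nearly unrelated across the sites. Spearman's correlation between the PRC2 and RNAPII fold was -0.06 over 951 sites, which share the same pooled libraries, while PRC2 fold and H3K27me3 coverage gave 0.46. The highest PRC2 folds at sites with a gene start were 109.16 at Cdkn2b, coding for the cell cycle inhibitor p15, and 63.18 at Bend4. Developmental regulators followed, with Zfp503 at 26.79, the Hoxb2 to Hoxb9 stretch at 23.84, En2 at 23.31, Sox1 at 22.98 and Irx5 at 22.71. Trp73, a p53 relative that shares its site with Wrap73, was at 24.52 and the protocadherin gene Pcdh17 at 23.01. The Hoxb site was one unbroken peak of 91256 bp on chromosome 11, 98.9% covered by H3K27me3.

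The highest RNAPII folds were 31.68 at Egr1, an immediate early factor, 30.86 at Elavl3, 28.94 at Klf4, 25.44 at Cdkn1a and 23.73 at Snai1. Kctd12 was at 23.11, Slit2, a secreted guidance cue, at 22.43, Arid5a at 21.79, Elavl2, a relative of Elavl3, at 21.62 and the Notch ligand Dll1 at 21.26. Of these 10 sites only Dll1 had its RNAPII summit inside H3K27me3, and their PRC2 folds ran from 2.41 to 9.74. No gene was among the 10 highest for both marks.

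**Figure D2:**
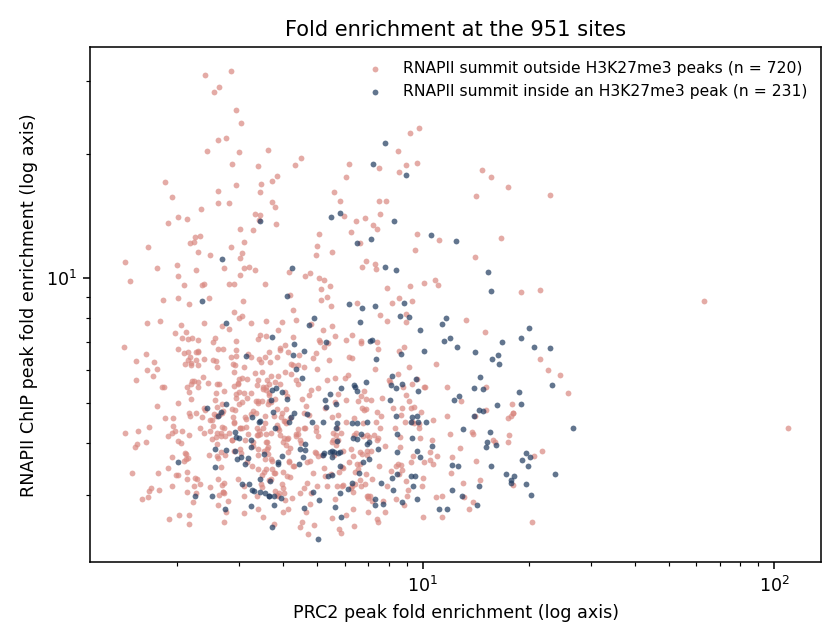
PRC2 fold against RNAPII ChIP fold for each of the 951 sites, both on log axes, with colour for the place of the RNAPII summit. The points show no slope (Spearman's correlation -0.06), and the sites with the summit inside H3K27me3 reach further to the right, with a median PRC2 fold of 6.52 against 3.92.

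At the edge of the rule, the smallest RNAPII overlaps were 3, 9 and 17 bp, the last at Add3, and 11 sites overlapped by under 50 bp. Just outside, RNAPII peaks missed an H3K27me3-marked PRC2 peak by 4 bp at Gdpd5 and by 11 and 17 bp at peaks without a gene start.

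Most genes at the sites had RNA in the parental B6NJ libraries. Summed feeder fibroblast markers were 110 to 151 CPM in these libraries, and the part of feeder cells in these levels was not tested. The median over 780 coding genes was 5.31 CPM, and 264 genes, 33.8%, were at 10 CPM or more, against 43% of all coding genes. The upper quartile was also below that of all coding genes, at 14.6 against 37.9 CPM. The median was 0.155 CPM for 981 genes at PRC2/H3K27me3 peaks without RNAPII, 1.34 CPM for 700 with RNAPII in ChIA-PET only, 15.5 CPM for 899 without H3K27me3 and 4.53 CPM for all 20999. Genes under 1 CPM made up 77.1%, 44.3%, 11.2% and 41% of these groups, against 19.9% at the sites. CPM are not divided by gene length here, so these are levels of groups and single genes are not ranked by them. RNAPII helped choose the sites, so this ordering is given without a test.

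Among genes at the sites, RNA was lower where PRC2 and H3K27me3 were higher and slightly higher where RNAPII was higher. Spearman's correlation with parental CPM over 780 genes was -0.34 for PRC2 fold, -0.25 for site length, -0.22 for H3K27me3 coverage and 0.17 for RNAPII fold. With the 951 sites cut at their quartiles of RNAPII fold, the 4 bins held 196, 200, 189 and 195 genes, of which 28.1%, 23.5%, 14.8% and 12.8% were under 1 CPM, from the lowest fold to the highest. In bins cut at the quartiles of H3K27me3 coverage, with 187, 176, 188 and 229 genes, the shares were 13.9%, 10.8%, 19.1% and 32.3%.

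Single genes covered the whole range. Klf4 was at 294, 311 and 294 CPM in the 3 parental libraries and Cdkn1a at 147, 145 and 140 CPM. Egr1, the site with the most RNAPII, was at 1.02, 1.13 and 1.19 CPM, and Snai1 at 2.25, 2.33 and 2.12 CPM. So high RNAPII folds in E14 cells were found with both high and low RNA in B6NJ cells, which grew with PD0325901 and CHIR99021. RNA and RNAPII of the same cells were not compared here. Among the highest PRC2 folds, Bend4 was at 68.4, 65.7 and 68.4 CPM, Cdkn2b at 1.38, 1.43 and 1.78 CPM and Pcdh17 at 0.025, 0.0731 and 0.018 CPM. In the Hoxb site, Hoxb5 had no count in any parental library and Hoxb9 was at 1.28, 1.36 and 1.34 CPM. Irx5 was at 0.142, 0.167 and 0.369 CPM, and Sox1, an early neural factor, at 6.85, 6.99 and 7.46 CPM.

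Across the 9 lines the median of the genes at the sites ran from 4.1 CPM in chr3 H7 to 5.98 CPM in chr9 G9, and 17.6% to 25.6% were under 1 CPM. By the share under 1 CPM, the order of the 4 classes was the same in every line.

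**Figure D3:**
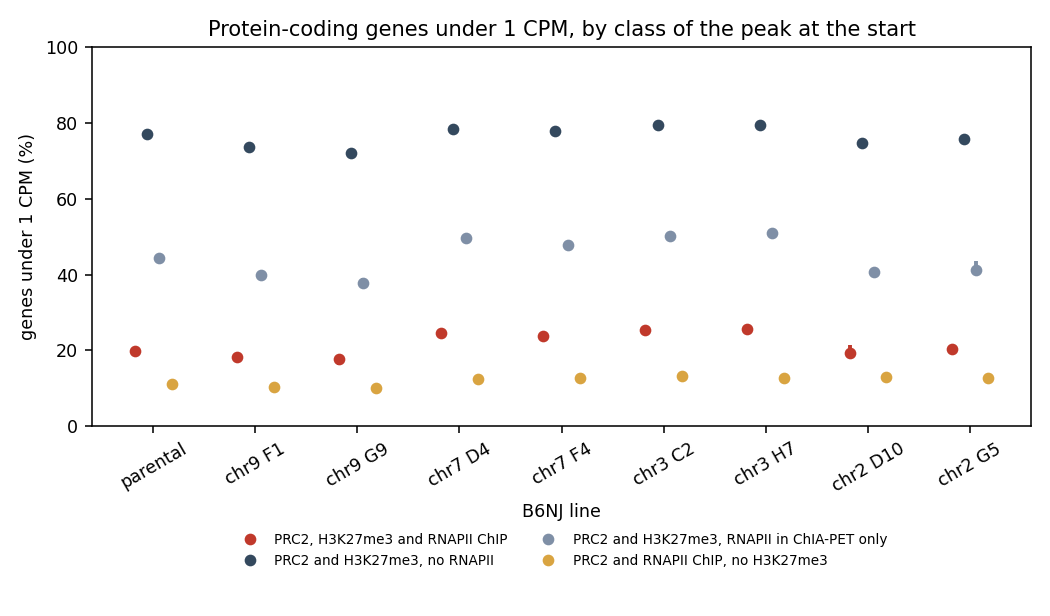
Percent of protein-coding genes under 1 CPM in each B6NJ line, by the class of PRC2 peak at the gene start. Points are computed from the mean CPM of a line and vertical bars span its libraries. Genes at the PRC2/H3K27me3/RNAPII sites lie between 17.6% and 25.6% in every line, above genes without H3K27me3 and below both other classes.

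Gene families fixed as lists divided unevenly over the classes. Of 105 homeobox genes, 29 started at the sites, 44 at PRC2/H3K27me3 peaks without RNAPII and 31 where RNAPII was seen in ChIA-PET only. These are counts of genes and not of sites. Hoxb4 and Hoxb9, among the 29, share the Hoxb site of 91256 bp, whose RNAPII fold was 3.37. In such a long site RNAPII need not lie at the start of each gene. Of 46 forkhead, Sox, Gata and T-box genes 10 were at the sites, and of 78 genes of Wnt, BMP, FGF, Hedgehog and Notch signalling 21. A gene with starts at peaks of several classes was counted at the sites first. Of 7 cell cycle inhibitors 5 were counted at the sites, namely Cdkn1a, Cdkn1c, Cdkn2a, Cdkn2b and Cdkn2c. The other 2 started at no PRC2 peak. Of 32 Polycomb subunits 5 did, among them Bmi1, Cbx2, Phc2 and Yaf2, which are subunits of PRC1. Klf4 and Tbx3 were the members of 27 pluripotency genes found there. Over all coding genes the share at the sites was 3.64%.

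Nearly all sites took part in PRC2 contacts. An anchor of an E14 PRC2 interaction overlapped 938 sites, or 98.6%, against 99.1% of peaks without RNAPII and 78.9% without H3K27me3. The sites were in these contacts with a median of 7 interactions and 62 paired-end tags (PETs) per site, and 2.43 interactions per kb of site. By overlap of 1 bp, peaks without RNAPII had a median of 7 interactions and 134 PETs at 2.98 per kb, and peaks with PRC2 and RNAPII but no H3K27me3 had 2 and 8 at 2.39 per kb. With at least 50% of the anchor inside the peak, the sites and the peaks without RNAPII had close medians of PETs, at 27 and 28, and of interactions per kb, at 1.91 and 1.89, while 93.4% and 81.2% of them were in an interaction. At 20 kb or more and by overlap of 1 bp, 749 sites were linked to at least 1 other PRC2 peak in 3316 pairs. Other sites made up 13.6% of these partners, peaks without RNAPII 25.6%, peaks with RNAPII in ChIA-PET only 24.9% and peaks without H3K27me3 5.07%. The same classes hold 4.06%, 7.96%, 4.41% and 9.76% of all PRC2 peaks. These shares of partners count every peak that an anchor overlaps by 1 bp. In the class with RNAPII in ChIA-PET only, the peaks at chr2:98663425-98664310 and chr2:98664665-98665407 were linked to 77 sites each. Peaks and interactions come from the same libraries.

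The sites with the most PETs depended on how an anchor was assigned. By overlap of 1 bp, all 10 lay on chromosome 2 with a partner between chr2:98662004 and chr2:98664310, with 7127 to 14942 PETs, and 77 sites were linked to a peak there. When at least 50% of both anchors had to lie inside the peaks, the strongest contacts joined developmental genes. Irx2 was linked to Irx1, another Iroquois homeobox gene, by 751 PETs over 651 kb, and Irx5 to Irx3 by 703 PETs over 543 kb. En2 was linked to the morphogen gene Shh by 400 PETs over 278 kb, and Irx4 to Irx2 by 399 PETs over 616 kb. Sp5 was linked to Gad1 by 305 PETs over 78 kb and Tbx3 to Lhx5 by 224 PETs over 745 kb. Of these 6 pairs, only Irx4 and Irx2 were both at the sites.

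In B6NJ cells, the share of sites touched by Ezh2 interactions stood below that of the other H3K27me3-marked peaks when an anchor had to overlap a peak by 1 bp, and most of the gap to peaks without RNAPII depended on that rule. Over 10 libraries 47.4% to 72.1% of the sites were touched, with a median of 63.4%. The medians were 80.2% for peaks without RNAPII, 73.6% with RNAPII in ChIA-PET only and 27% without H3K27me3. With at least 50% of the anchor inside the peak, the medians were 50% for the sites, 51.1% for peaks without RNAPII and 57.4% with RNAPII in ChIA-PET only, and the sites were above peaks without RNAPII in 4 of the 10 libraries. By overlap of 1 bp, the 2 parental libraries were at 47.4% and 62.4%, chr9 F1 at 56.5% and 62.5%, chr9 G9 at 64.2% and 64.9%, chr7 D4 at 72.1% and 71.2% and chr7 F4 at 71.1% and 56.5%. The spread within the parental line and within chr7 F4 was as wide as that between most lines. The libraries also differed in interactions, from 4734 in parental replicate 1, with the lowest share, to 9354 in chr7 D4 replicate 1, with the highest. Yet chr9 G9 replicate 2, with 6122, stood above parental replicate 2, with 8794. The part of this number in the shares was not tested. All 10 libraries touched 315 sites and none touched 69. By PRC2 fold in E14 cells, the share touched in any library was 82.7% of sites under 3, 93.4% at 3 to 5, 97% at 5 to 10 and 100% at 10 or more. For peaks without RNAPII these shares were 94.2%, 93.5%, 99.2% and 99.8%, and with RNAPII in ChIA-PET only 86.1%, 94.7%, 98.8% and 97.4%, so at a fold of 3 or more the classes were close.

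The site nearest to a deleted interval was that of Cdkn1c (chr7:143456533-143466673), coding for the imprinted cell cycle inhibitor p57, 5816 bp from the interval removed in the chr7 clones. Its PRC2 fold was 15.64 and its RNAPII fold 17.54, H3K27me3 covered 29%, and a CTCF peak lay in it. The interval itself holds a PRC2/H3K27me3 peak without RNAPII, with a PRC2 fold of 13.89. Cdkn1c was at 5.02, 5.4 and 5.96 CPM in the parental libraries, at 12.2, 10.1 and 9.98 CPM in chr7 D4 and at 13.6, 14.2 and 11.5 CPM in chr7 F4. Every chr7 library was above every parental one, and the rise was 1.16 on the log2 scale (SE 0.11, edgeR's quasi-likelihood test, adjusted p = 7.21e-11). For chr3, Cdkn1c was also called higher, by 0.50 (adjusted p = 0.000173), at 6.98 to 8.69 CPM. It was called lower for chr9, by -0.57 (adjusted p = 0.000126), where the libraries at 2.63 to 5.34 CPM overlapped the parental ones, and for chr2, by -0.25 (adjusted p = 0.0459). The chr2 call was lost with other size factors (adjusted p = 0.0761), with the compared libraries only (0.0858), with DESeq2 (0.0730) and with a replicate block (0.0533). The chr9 interval also holds a PRC2/H3K27me3 peak without RNAPII, of fold 11.86, and the nearest site, that of the homeobox gene Pknox2, lay 304 kb away.

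All 4 deletions are set against the same 3 parental libraries, so their values are given side by side and are not independent. Of 902 genes at the sites with a count, 790 passed the filter on low counts and were tested among 19993 genes. For chr9, 275 were higher and 101 lower, which is 34.8% and 12.8%, against 17.1% and 20.6% of all genes tested (37.7% in either direction). Higher calls were also frequent for genes at PRC2/H3K27me3 peaks without RNAPII, 27.7%, and with RNAPII in ChIA-PET only, 34.4%. For chr7, 195 were higher and 319 lower, 24.7% and 40.4% or 65.1% together, against 63.3% of all tested (27.6% higher and 35.7% lower). For chr3, 163 were higher and 338 lower, 20.6% and 42.8% or 63.4% together, against 60.8% (25.4% higher and 35.4% lower). For chr2, 300 were higher and 241 lower, 38% and 30.5% or 68.5% together, against 65.3% (31.2% higher and 34.1% lower). The shares in either direction for chr7, chr3 and chr2 were close to those of all genes. By direction, the sites had a higher share of lower calls than all genes for chr7 and chr3 and a higher share of higher calls for chr2. Other classes shared part of this. Lower calls with RNAPII in ChIA-PET only were 38.3% for chr7 and 44.8% for chr3, and without H3K27me3 41.6% and 42.2%. Peaks without RNAPII had 28.6% and 34.1%. Higher calls for chr2 were 35.9% with RNAPII in ChIA-PET only, 33.1% without RNAPII and 30.9% without H3K27me3.

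The clones of a deletion share it, and the comparison of clones uses no parental library. At the sites, chr9 G9 was higher than F1 for 216 genes and lower for 81, 37.6% against 31.5% of all tested (14.1% higher and 17.4% lower), and chr2 G5 was higher than D10 for 177 and lower for 253, 54.4% against 50.7% (25.7% higher and 25% lower). Between the chr7 clones 3 genes were higher and 3 lower in F4 (0.759% of those tested, against 0.385% higher and 0.58% lower, 0.965% together, over all genes), which became 13 and 9 with DESeq2, 13 and 11 without a filter on low counts and 7 and 15 without D4 replicate 3. Between the chr3 clones 0 were higher and 5 lower in H7 by edgeR (0.633%, against 0.55% higher and 0.31% lower, 0.86% together, over all genes). At an unadjusted p under 0.05 by edgeR, 26 were higher and 78 lower in H7, against 1341 and 1259 of all 19993 genes tested. DESeq2 called 1 higher and 17 lower at the sites. Shares of all genes are not given for the counts with DESeq2, without a filter or without a library. Against parental, F1 alone had 151 genes at the sites higher, 19.1%, against 12.2% of all genes tested. G9 alone had 337 higher, 42.7% against 21%. Genes called in both clones in the same direction numbered 116 higher and 53 lower for chr9 (21.4% against 15.8% of all tested), 162 and 257 for chr7 (53% against 50.4%), 134 and 272 for chr3 (51.4% against 47.2%) and 188 and 157 for chr2 (43.7% against 40.3%).

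Set against the 6 clones of the other deletions in place of the parental line, genes at the sites were called lower more often than all genes tested for chr7 and chr3, and higher more often for chr9 and chr2. So were genes at each of the other PRC2 peak classes compared. Without H3K27me3 the chr2 excess was small, at 30.7% higher against 30.1%. For chr9, 424 were higher and 183 lower, against 40.8% higher and 31.1% lower over all genes (71.9% together), and the depth of the libraries differs in this comparison too. For chr7, 157 were higher and 334 lower, 19.9% and 42.3%, against 26.1% and 29.3% (55.3% together). For chr3, 132 and 398, 16.7% and 50.4%, stood against 27.2% and 28.2% (55.4% together). For chr2, 348 and 184, 44.1% and 23.3%, stood against 30.1% and 27.4% (57.5% together). These comparisons share clones with each other. Most changes were small: tested against a 1.5-fold change, 33 and 12 genes at the sites were called for chr9, 59 and 127 for chr7, 38 and 135 for chr3 and 115 and 96 for chr2, against 4.48%, 20%, 16.4% and 21.5% of all genes in either direction.

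**Figure D4:**
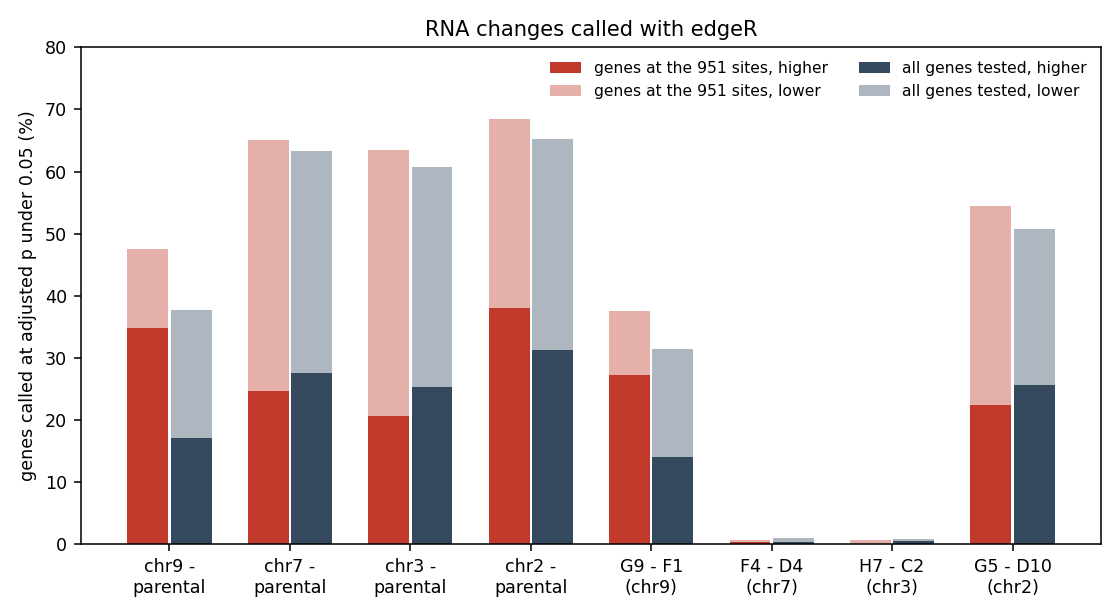
Percent of tested genes called higher (dark) and lower (light) with edgeR at an adjusted p under 0.05, for genes at the 951 sites and for all 19993 genes tested, in each deletion minus parental and between the clones of each deletion. For chr9 the dark part is 34.8% at the sites and 17.1% over all genes, and in the other deletions the total heights are close.

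In the chr9 clones, extracellular matrix genes were among the largest rises at the sites. Col5a1, a fibrillar collagen, was at 13.7, 12.4 and 13.9 CPM in the parental libraries and at 24 to 49.5 CPM (median 35) in the chr9 libraries, a rise of 1.27 (SE 0.0919, adjusted p = 9.49e-13, edgeR). Col4a2 and Col4a1, coding for basement membrane collagens that share 1 promoter region, rose by 1.19 and 0.91, and Timp2, an inhibitor of matrix proteases, rose by 0.89. In all of them the chr9 libraries lay above the parental ones. Beside these genes, 21 of 24 tested feeder fibroblast markers, of which Col5a1 is one, were called higher in the chr9 clones, with a median log2 change of 0.99. The part of feeder cells in these rises was not tested.

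Other rises in the chr9 clones were those of Mex3b, an RNA-binding protein, by 1.46, Lonrf3 by 1.43, Tspan2, a tetraspanin, by 1.42 and Tmem132c by 1.39. Mex3b was at 3.3, 3.16 and 3.48 CPM in parental and 7.72 to 10.3 CPM (median 9.26) in chr9 libraries, with no overlap (SE 0.13, adjusted p = 1.23e-10, edgeR). The largest fall among genes called alike in both clones at a mean of 5 CPM or more was in Grb10, an imprinted adaptor protein of insulin signalling, by -1.67 (SE 0.0477). Among the other large falls were the ligand Bmp4 by -1.12, the secreted hormone Stc2 by -1.0, the T-box factor Eomes by -0.88, the semaphorin receptor Nrp2 by -0.87 and Lef1, which carries Wnt signals to target genes, by -0.85. These are single genes: of 21 signalling genes at the sites 7 were lower and 3 higher for chr9, and of 9 forkhead, Sox, Gata and T-box genes, with Eomes, 2 were lower and 5 higher. Bmp4 was at 8.1, 8.73 and 7.59 CPM in parental, 6.19 and 5.62 CPM in chr9 F1 and 2.12, 2.83 and 2.05 CPM in chr9 G9. Esrp1, an epithelial splicing factor, fell by -0.84 and the homeobox factor Otx2 by -1.45. None of these groups overlapped. Against the 6 clones of other deletions in place of parental, Bmp4, Eomes and Lef1 were instead higher in the chr9 clones, by 0.38, 0.79 and 1.67.

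In the chr7 and chr3 clones the same named genes often led the falls. Lef1 starts at chr3:131104985-131114164, where the PRC2 fold was 9.32 and the RNAPII fold 8.83. It was at 24.3, 26.3 and 26.1 CPM in the parental libraries, at 1.57 to 3.12 CPM (median 2.26) in the chr7 libraries and at 4.34 to 5.9 CPM (median 5.14) in the chr3 libraries. The change was -3.47 (SE 0.12, adjusted p = 3.49e-21) for chr7 and -2.30 (SE 0.111, adjusted p = 1.28e-17) for chr3 by edgeR. Notum, a secreted enzyme that inactivates Wnt ligands, fell by -3.52 and -2.77, and Id3, an inhibitor of bHLH factors, by -2.66 and -2.39. The homeobox factor Gbx2 fell by -2.53 and -2.28, the zinc finger factor Sall3 by -2.50 and -2.23 and the neurofilament gene Nefh by -2.52 and -2.34. In both deletions all libraries of these genes lay below the parental ones. Arhgef26 fell by -1.82 for chr7, and the matrix gene Thbs1 by -2.47 and the Egr corepressor Nab2 by -1.82 for chr3. Thbs1 varied in the parental line, at 18.8, 16.3 and 28.7 CPM.

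Esrp1, at chr4:11383170-11390133 (PRC2 fold 9.33, RNAPII fold 5.57), rose in both, from 16.7, 17.9 and 17.7 CPM to 41.7 to 51.3 CPM (median 43.3) in chr7 and 36.7 to 41.3 CPM (median 40.2) in chr3 libraries. The rises were 1.39 (SE 0.0568) and 1.22 (SE 0.0564), and no library overlapped the parental ones. Osbpl6, a lipid-binding protein, rose by 1.44 and 1.35, the phosphatase Dusp4 by 1.17 and 1.15 and Nav2 by 1.16 and 1.12 for chr7 and chr3. For chr7, the keratin Krt18 rose by 1.29 and Greb1l by 1.19. For chr3, the matrix protein Frem2 rose by 1.25, the glycosyltransferase B4galnt2 by 1.07 and Trp73 by 1.04. In the same comparisons 12 and 20 of 24 feeder markers were called lower and 1 was called higher in each, with medians of -0.55 for chr7 and -1.27 for chr3.

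In the chr2 clones Aqp3, a water and glycerol channel at chr4:41096910-41098932 (PRC2 fold 2.02, RNAPII fold 4.04), had the largest rise of the named genes. It was at 36.3, 37.1 and 36.4 CPM in parental, 424, 337 and 348 CPM in chr2 D10 and 116, 105 and 119 CPM in chr2 G5. The change was 2.53 (SE 0.073, adjusted p = 1.45e-23, edgeR), with both clones above every parental library and D10 far above G5. Tspan2 rose by 2.09, Mbp by 1.76, Osbpl6 by 1.75, Gadd45g, a stress-response gene, by 1.69, Ttc9 by 1.66, the ubiquitin ligase Rnf130 by 1.65 and Lonrf3 by 1.55. Id3 fell by -2.99 (SE 0.138), from 18.6, 15.5 and 11.8 CPM to 0.855 to 3.42 CPM (median 2.12). Gbx2 fell by -2.54, Grb10 by -2.33, Eomes by -2.08, Notum and the guidance cue Ntn1 by -1.85 each, the activin subunit Inhbb by -1.80 and Lef1 by -1.78. None of these groups overlapped the parental libraries. Against the 6 clones of other deletions, Lef1 was instead higher by 0.42, and the 0.20 of Notum did not pass the test (adjusted p = 0.0707). Of the feeder markers 6 were called higher and 6 lower.

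Grb10, at chr11:12034351-12040396 with a PRC2 fold of 15.68 and an RNAPII fold of 9.31, differed between the clones of 1 deletion. It was at 252, 260 and 257 CPM in parental, 26.8, 28.6 and 23.6 CPM in chr7 D4 and 190, 191 and 181 CPM in chr7 F4. Its chr7 change of -1.83 is thus a mean of unlike clones, -3.24 and -0.42. It was at 66.6 to 97.9 CPM in the chr9, 174 to 190 CPM in the chr3 and 38.6 to 60 CPM in the chr2 libraries, and the change for chr3 was -0.47, or 1.48 against the 6 clones of other deletions. All 23 libraries of deletion clones lay below the parental range.

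**Figure D5:**
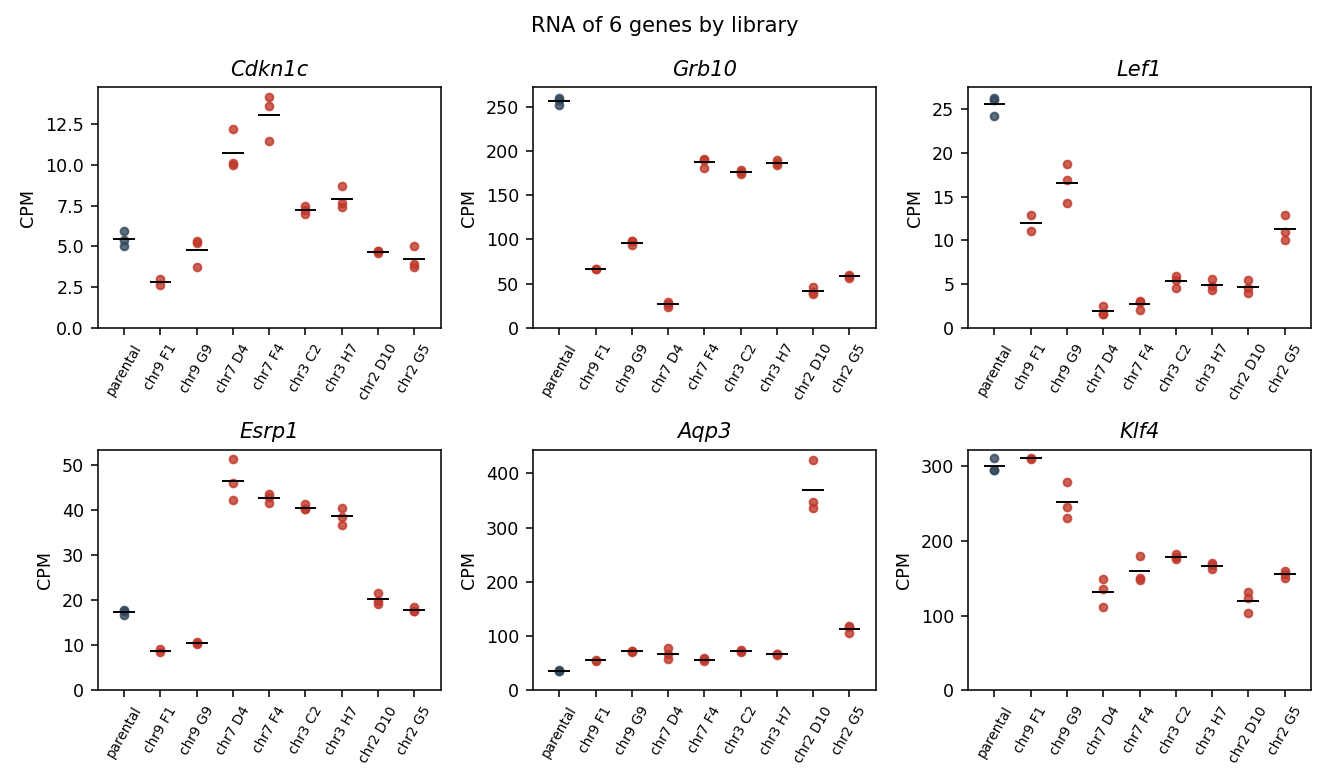
RNA of 6 genes at the sites in each library, in CPM on axes that start at 0, for the parental line (blue) and the 8 deletion clones (red), with bars at line means. Cdkn1c is highest in both chr7 clones, Grb10 is lower than parental in all clones and lowest in chr7 D4, and Aqp3 is highest in chr2 D10.

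By list, most forkhead, Sox, Gata and T-box genes and most bHLH and zinc finger factors at the sites were lower for chr7 and chr3. The homeobox genes were lower at 12 of 24 for chr3, and for chr7 at 8 of 24, near the 35.7% of all genes tested. Of the 24 tested homeobox genes, 3 were higher and 8 lower for chr7 (median -0.25), 2 and 12 for chr3 (-0.85), 7 and 3 for chr9 (0.36) and 9 and 7 for chr2 (0.12). Of 9 forkhead, Sox, Gata and T-box genes, 1 was higher and 7 lower for chr7 (-1.40) and for chr3 (-1.24), 5 and 2 for chr9 (0.60), and 4 were lower for chr2 (-0.37). Sox1 fell by -2.21, -2.26 and -2.40 for chr7, chr3 and chr2. Foxd3, a forkhead factor of ES and neural crest cells, fell by -2.74, -2.12 and -1.76 in the same order, from 6.28, 7.31 and 6.13 CPM. Otx2 rose for chr3 by 0.60. Of 10 bHLH and zinc finger factors, 1 was higher and 6 lower for chr7, 1 and 7 for chr3, 3 and 1 for chr9 and 3 and 4 for chr2.

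Klf4 was at 111 to 179 CPM (median 148) in the chr7, 162 to 182 CPM (median 173) in the chr3 and 103 to 160 CPM (median 141) in the chr2 libraries. It fell by -1.02, -0.77 and -1.09, with no overlap with the parental 294 to 311 CPM, and its change of -0.09 for chr9 did not pass the test (SE 0.0711, adjusted p = 0.323, edgeR). Against the 6 clones of other deletions it was 0.86 higher in the chr9 clones, and its chr3 change was not called (adjusted p = 0.586). Of 21 signalling genes at the sites, 4 were higher and 12 lower for chr2 (median -0.47), 5 and 11 for chr3, 4 and 9 for chr7 and 3 and 7 for chr9. Dll1 rose by 0.98 for chr7 and 0.88 for chr2. Of 11 axon guidance and neuronal genes, 3 to 4 were higher and 3 to 5 lower in each deletion.

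Of the 5 cell cycle inhibitors, 4 were higher and 1 lower for chr9, 3 and 1 for chr7, 2 and 2 for chr3 and 3 and 1 for chr2. Cdkn1a rose for all 4, by 0.34, 0.37, 0.37 and 0.66 for chr9, chr7, chr3 and chr2, but was at -0.126, -0.0871 and -0.086 for chr9, chr7 and chr3 against the 6 clones of other deletions. Cdkn2a, which codes for p16 and Arf, rose by 0.48 for chr9 and 0.54 for chr2 and fell by -0.54 for chr7 and -0.66 for chr3. The 5 Polycomb subunit genes at the sites were all lower for chr7 and chr3, with medians of -0.26 and -0.62, while 3 were higher and 1 lower for chr9 and 3 and 2 for chr2. Cbx2, a chromobox reader of H3K27me3, was at 43.7, 44.5 and 43.1 CPM in parental and fell by -0.90, -0.98 and -0.49 for chr7, chr3 and chr2, the last of which was 0.12 against the 6 clones of other deletions. Bmi1, a RING partner in PRC1, rose by 0.55 for chr9 and 0.90 for chr2. The background for all lists is the percent of all tested genes called, given above for each deletion.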

How the data were processed

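RNA came from 26 B6NJ mRNA libraries made with a stranded kit, and chromatin data in pooled E14 libraries and 10 B6NJ Ezh2 ChIA-PET libraries. The authors deposited raw counts per gene ID, without normalization. The peak lists were deposited by the authors as pooled calls with a fold enrichment (a ratio to background) and -log10 p and q values. In the deposited interaction lists each row has a count of paired-end tags and a p-value, and the E14 list starts at 3 tags. Per the submitters' processing notes, BWA 0.7.12, MACS2 2.1.1.20160309, HISAT2 2.1.0, HTSeq 0.6.1, Trim Galore 0.4.0 and cutadapt 1.14 were used, on mm10. Pooling leaves no replicate error for the E14 maps. The strand setting of the counting is unstated in the labels and notes, so overlapping antisense genes can be mixed.

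Gene starts came from RefSeq (GRCm38.p6). Where strand was known from the promoter table it was used, and otherwise either gene end. A gene with starts at peaks of several classes was placed at the sites first, in RNA levels, RNA changes and lists alike. Counts were fitted in 1 edgeR model (edgeR 4.0.16, limma 3.58.1, R 4.3.3, TMM, filterByExpr) with the quasi-likelihood test and Benjamini-Hochberg adjustment at 0.05 over all 19993 genes. A deletion is the mean of its 2 clones minus parental. Python 3.11.15 and pandas 2.3.3 were used for overlaps. The test was checked on simulated counts. Levels were planned per kb of coding length, but no lengths were used here, so they are CPM. Named genes are the 10 highest sites per mark, the 8 largest rises and falls per deletion called alike in both clones at a mean CPM of 5 or more, up to 6 genes per list, and the strongest contacts. Predicted and ribosomal protein symbols were left out, and some named items are not reported here. Members and lists were chosen with earlier results of these data known. Nothing in the labels ties replicates to separate cultures, and p-values reflect only the variation among these libraries, which could be technical. Replicate pairs differed by more than sampling noise. Reads outside genes, 5.08% to 8.77%, and ambiguous reads, 1.46% to 1.62% of counts, stayed out of library sizes. ATAC data and E14 RNA were not used here. Alternatives were other size factors, DESeq2 1.42.0, no filter, a replicate block, the compared libraries only, leaving out libraries, a 1.5-fold threshold, other controls, other overlaps and other distances. Single clones were added after seeing the data.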

Additional observations from a re-analysis of the deposited data

Results flagged for a closer look

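Clones that share a deletion differed at named genes of the PRC2/H3K27me3/RNAPII sites, by edgeR's quasi-likelihood test of clone against clone (adjusted p under 0.05). In the chr7 clones this held for Grb10, which was 2.82 higher in F4 than in D4 on the log2 scale (adjusted p = 2.09e-26). Its changes from parental were -3.24 in D4 and -0.42 in F4.

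In the chr2 clones the log2 differences of genes higher in G5 than in D10 were Cbx2 0.39, Eomes 0.79, Foxd3 1.79, Gbx2 1.27, Grb10 0.49, Id3 1.65, Inhbb 1.06, Klf4 0.39, Lef1 1.29, Notum 2.34, Ntn1 1.12 and Tspan2 0.34. Those of genes lower in G5 were Aqp3 -1.69, Cdkn1a -0.61, Cdkn2a -0.57, Dll1 -1.14, Gadd45g -1.18, Lonrf3 -0.29, Mbp -0.40, Osbpl6 -1.07, Rnf130 -0.59 and Ttc9 -0.31. Each of these genes had a change from parental of the same sign in both clones.

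In the chr9 clones the log2 differences of genes higher in G9 than in F1 were Aqp3 0.40, Cdkn1a 0.52, Cdkn1c 0.76, Cdkn2a 0.57, Col5a1 0.68, Esrp1 0.26, Grb10 0.54, Lef1 0.48, Lonrf3 0.44, Stc2 0.62, Timp2 0.60 and Tspan2 0.39. Those of genes lower in G9 were Bmp4 -1.33, Eomes -0.48, Klf4 -0.29 and Tmem132c -0.67. The log2 change of Klf4 from parental was 0.05 in F1 and -0.24 in G9, and the other chr9 genes had the same sign in both clones. Summed feeder fibroblast markers were 137 to 190 CPM in F1 and 284 to 571 CPM in G9, and their part in these differences was not tested.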

How the results depend on the processing

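The number of sites was 422 with H3K27me3 over at least 50% of the peak, 524 with the stronger RNAPII peaks only and 1984 with RNAPII from ChIP or ChIA-PET. A gene start was found at 91.2% within 1 kb and 92.3% within 2 kb, where the median RNA was 5.82 CPM. Sites in an E14 interaction were 93.4% with at least 50% of the anchor inside, 74.2% at 10 or more tags and 93.5% at 20 kb or more. With at least 50% of the anchor inside, Ezh2 libraries touched a median of 50% of sites, with 17.5% of interactions against 23.6%.

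Tested against a 1.5-fold change, 33 genes were higher and 12 lower for chr9, 59 and 127 for chr7, 38 and 135 for chr3 and 115 and 96 for chr2. Of all genes, 4.48%, 20%, 16.4% and 21.5% were called in either direction, in the same order. Against parental, chr9 F1 alone had 151 higher, 19.1% against 12.2% of all genes tested. Against the 6 clones of other deletions, chr9 had 424 higher and 183 lower, against 40.8% and 31.1% of all genes tested. Against those 6 clones named genes reversed on the log2 scale, at 0.38 for Bmp4, 0.79 for Eomes, 1.67 for Lef1, 0.86 for Klf4, -0.63 for Aqp3 and -0.13 for Cdkn1a in chr9, -0.64 for Aqp3 and -0.0871 for Cdkn1a in chr7, 1.48 for Grb10, -0.42 for Aqp3 and -0.086 for Cdkn1a in chr3, and 0.42 for Lef1, 0.20 for Notum and 0.12 for Cbx2 in chr2. Between the chr7 clones 13 were higher and 11 lower without a filter, and 13 and 9 with DESeq2. Between the chr3 clones 2 were higher without a filter, and 1 higher and 17 lower with DESeq2. The cause was not tested.

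Leaving out each library in turn gave 222 to 270 higher and 78 to 103 lower for chr9, 176 to 196 and 291 to 320 for chr7, 144 to 163 and 308 to 336 for chr3, and 277 to 305 and 221 to 242 for chr2. Between clones it gave 128 to 194 and 48 to 91 for chr9, 2 to 7 and 1 to 15 for chr7, 0 to 1 and 1 to 4 for chr3, and 160 to 168 and 224 to 246 for chr2. The chr9 clone counts fell to 130 and 128 higher without F1 replicate 1 and 2, and to 48 lower without F1 replicate 2. The chr7 clone counts were 7 higher and 15 lower without D4 replicate 3, and 1 lower without D4 replicate 1, D4 replicate 2 or F4 replicate 2. The chr3 counts were 1 higher without C2 replicate 3 or H7 replicate 2, and 1 to 3 lower without C2 replicate 1 or 2 or H7 replicate 1 or 3. The Ezh2 medians were 62.5% to 64.2% of sites and 23.5% to 23.6% of interactions.

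Replicate numbers paired no samples, since 0 of 100 same-numbered pairs had a correlation of deviations over 0.1. With the replicate block, 275 were higher and 98 lower for chr9, 193 and 322 for chr7, 163 and 338 for chr3 and 296 and 239 for chr2. Genes under the filter on low counts were not tested. For the left-out libraries, the replicate block, DESeq2 and no filter, shares of all genes are not given. Those counts show only how the number at the sites moved, and not whether a shift is particular to them.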
